A study of Mus musculus with 5 samples.

Results

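The genes described here are those of the receptors for glutamate, GABA and glycine, the scaffolds that hold these receptors at the synapse, the adhesion proteins that join both sides of it, and the synaptotagmins and synapsins of the presynaptic vesicle. They were picked by a pattern of gene symbols, with Grm8 left out, and not by a cutoff on their measured levels. The pattern was set with earlier results of these data known. GENCODE M21 holds 99 such genes, and 49 of them could be read in these data, out of 12537 genes read in all. The libraries come from striatal homogenates of adult mice: 2 from the line that carries the Adcy5 R419W allele (KI replicates 1 and 3), compared with 3 from its wild-type littermates (WT replicates 1 to 3). Adcy5 is the gene of the adenylyl cyclase that makes most striatal cAMP. The labels give neither the number of mutant alleles nor the sex of the animals, and it is not said that each library is a different animal. All p-values therefore rest on library-to-library spread, part of which may be technical.

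Spiny projection neurons carry the output of the striatum and receive glutamate from cortex and thalamus and GABA from each other and from interneurons. Fast excitation passes through AMPA, kainate and NMDA receptors, which are tetramers of related subunits, and fast inhibition through pentameric GABA-A receptors. Metabotropic glutamate receptors and GABA-B receptors act through G proteins, and several of them lower cAMP, the product of adenylyl cyclases. Postsynaptic scaffolds of the Dlg, Dlgap, Shank and Homer families stack under the receptors, while presynaptic neurexins bind neuroligins and LRRTM proteins across the cleft.

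Counts summed over features ranged from 6595105 to 7910584 per library, and a read pair that touches several features enters this sum more than once. Levels are given in CPM, counts scaled by the library's total times its TMM factor (0.9811 to 1.024). Where a gene has 0 counts its level could still be 0.379 to 0.455 CPM depending on the library (a limit of 3 counts of the unscaled total, for counting error alone). The features were drawn on GRCm39, but counts were found almost wholly where GRCm38 has exons, so names were taken from the GRCm38 exons under a feature and not from the identifier in the file. Features with no GRCm38 exon under them were 63.23% of all and held 1.057% of the counts. By position the 49 genes had a median level of 26.6 CPM, against 2.27 CPM for the 99 features that carry these symbols as file labels. Of 20 spiny projection neuron markers 9 could be read. They summed to 9166 to 12070 CPM in WT and 7880 to 8839 CPM in KI libraries. Most of that sum in each library was Penk, the enkephalin gene, at 6699 to 8248 CPM in WT and 5278 to 5883 CPM in KI. Of the 8 markers tested, 3 were above 0 in log2 fold change (Tac1, Arpp21 and Rarb) and 5 below. Markers of cortical glutamate neurons (6 of 15 read, none at 0 in all libraries) summed to 413.9 to 737.6 CPM in WT and 354.7 to 410.0 CPM in KI. The largest part of that sum in each library was Foxp2, at 309.2 to 396.6 CPM in WT and 287 to 316.2 CPM in KI. Whether the Foxp2 counts came from cortical neurons was not tested. Markers of thalamic glutamate neurons (4 of 5 read) are given below. KI replicate 3 stood apart in Ttr, a choroid plexus gene, at 2086 CPM against 28.0 to 61.6 CPM in the other libraries. A fit without that library has KI replicate 1 as its only KI library, so it cannot show whether this difference touched the synaptic genes. Because these are homogenates, fewer cells of a type and less RNA per cell cannot be told apart.

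A level below is that of the part of a gene that lies under its feature. Exons were covered in full for 5 genes (Gria4, Grin3a, Gabbr2, Gabrr1 and Gabrr2), and for 35 genes less than 10% of the exon bases were covered, with a median over the 49 genes of 5%. The strand was not used in counting, so an antisense transcript over a covered stretch would add to it. The following stretches show what several values rest on: each is the longest run of coding bases under the gene's feature, read from the GENCODE M21 transcripts (GRCm38) and written in the direction of the transcript. For the AMPA subunit genes Gria1 (chr11:57221018-57221070, plus strand) and Gria3 (chrX:41591710-41591736, plus strand) the runs start alike, and capitals mark the bases that differ when the first 27 bases are laid side by side without gaps, of which 17 are identical. The others are Gabra2 (chr5:70973425-70973448, minus strand), Grik2 (chr10:49101111-49101272, minus strand), Syn3 (chr10:86407627-86407704, minus strand) and Syt9 (chr7:107504162-107504333, plus strand), with no base marked.
Gria1: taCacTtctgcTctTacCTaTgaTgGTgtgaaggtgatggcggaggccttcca
Gria3: taTacAtctgcActGacACaCgaCgCA
Gabra2: gggaagagtgtagtcaatgacaag
Grik2: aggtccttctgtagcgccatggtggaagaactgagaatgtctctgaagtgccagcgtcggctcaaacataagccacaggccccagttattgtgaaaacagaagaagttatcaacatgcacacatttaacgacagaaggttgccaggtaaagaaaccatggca
Syn3: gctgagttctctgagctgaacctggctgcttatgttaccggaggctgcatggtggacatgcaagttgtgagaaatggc
Syt9: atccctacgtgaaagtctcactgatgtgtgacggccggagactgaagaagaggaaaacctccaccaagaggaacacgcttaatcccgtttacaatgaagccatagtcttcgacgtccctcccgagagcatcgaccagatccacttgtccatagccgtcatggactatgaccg
The run of Gria1 is all that its feature covers, as are those of Gabra2 and Syn3, whereas for Gria3 the other 1983 of 2010 covered bases are not coding in any transcript. A read pair counts when it touches the feature with a single base, so a short stretch gathers more counts per base than a long one, and levels are compared between genes only for those covered in full.

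None of the synaptic genes differed between genotypes past the threshold. Of the 49 genes 42 passed the filter on low counts, and 0 of these had an adjusted p under 0.05 in edgeR's quasi-likelihood test of KI against WT, a call that 0.102% of the 13665 tested features received (0.0439% higher and 0.0585% lower in KI). The DESeq2 Wald test and limma voom also called 0 of them (1.83% and 0.373% of the features those tools tested), and DESeq2 gave an adjusted p to 28 of the 49. An unadjusted p under 0.05 was found for 1 gene, Shank2, in edgeR (6.39% of all features) and in limma voom (6.57%), and for 0 genes in DESeq2 (3.81%). These counts take 1 feature per gene. Of 26 further stretches of these genes that were tested, 4 had an unadjusted p under 0.05, all lower in KI: 2 of Dlg1, 1 of Grik2 and 1 of Nrxn2, and none passed after adjustment. Log2 fold changes were above 0 for 23 genes and below 0 for 19 (49.6% of all features were above 0), with a median of 0.02, beside -0.0024 over all features. Both KI libraries lay beyond all WT libraries for 9 genes, 6 above and 3 below, where 22.4% of all features were separated in this way (11.3% above and 11.1% below), so the share among these genes was close to that background.

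How much difference the data leave room for depended on the level and on the spread between libraries. Intervals reached 1.53-fold for Gabbr2, at a mean of 654.8 CPM, but 1.325-fold for Dlg3, at 67.1 CPM. For the 17 genes with a mean of at least 100 CPM, log2 fold changes lay between -0.26 and 0.27, and no approximate 95% interval reached beyond 1.61-fold in either direction. The smallest p among them was 0.0926 (edgeR, unadjusted), whereas 11.9% of all features at that level had an unadjusted p under 0.05. Intervals were far wider for genes of a few CPM, such as Glra3 and Lrrtm4, and for these a change of several fold was not detectable at this depth.

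**Figure D1:**
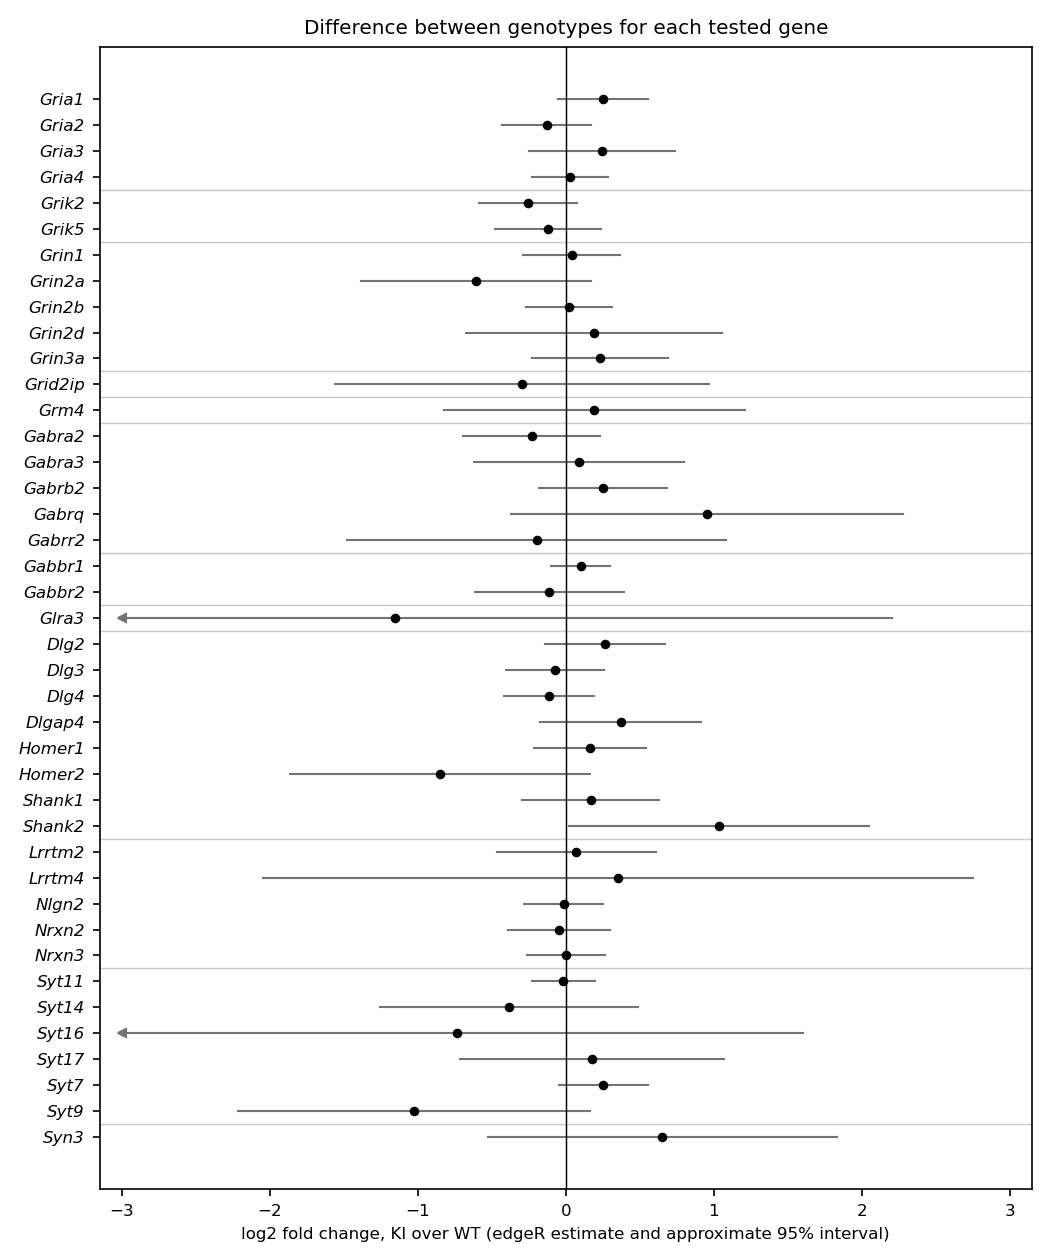
Difference between genotypes for 41 of the 42 tested genes, grouped by family between grey lines: the x axis is the log2 fold change of KI (n = 2 libraries) over WT (n = 3), points are edgeR estimates and bars approximate 95% intervals, with arrows where a bar runs past the axis. The interval of Shank2 alone stays on one side of 0, and those of the 17 genes at 100 CPM or more reach at most 1.61-fold.

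The 4 AMPA receptor subunits, which carry most fast excitation, were all read. Gria1 measured 94.3, 105.3 and 94.9 CPM in WT replicates 1 to 3 and 107.6 and 126.0 CPM in KI replicates 1 and 3. Both KI libraries were thus above all WT libraries, but the log2 fold change of 0.25 (SE 0.14) did not pass (edgeR adjusted p = 0.867). Gria2, the subunit whose editing keeps calcium out of the channel, was at 244.5, 293.6 and 306.8 CPM in WT and 228.4 and 286.2 CPM in KI. Its groups overlapped, and WT replicate 1 and KI replicate 1 were the lowest. Gria3 ranged from 25.5 to 40.4 CPM in WT and from 36.8 to 40.4 CPM in KI. Gria4, read over all its exons on chromosome 9, came to 500.8, 441.0 and 437.3 CPM in WT and 510.7 and 427.0 CPM in KI, with a log2 fold change of 0.03 (SE 0.12). Its feature also covers the small gene Gm23811. Summed over the family, levels were 864.5 to 880.3 CPM in WT and 876.0 to 887.1 CPM in KI. That sum adds stretches of unlike length, and Gria4, the only subunit covered in full, was its largest part in each library.

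Kainate receptors were read through 2 of 5 subunits. Grik2, a pore-forming subunit, measured 112.7, 138.9 and 150.6 CPM in WT and 103.9 and 120.5 CPM in KI (log2 fold change -0.26 with SE 0.15, adjusted p = 0.884 in edgeR). A separate feature over another 251 exon bases of Grik2 gave -0.49 (SE 0.18, edgeR adjusted p = 0.554). A further one over 168 bases gave -0.05 (SE 0.29), and differences between these stretches were not tested. Grik5, a subunit that needs a partner to form a channel, was at 235.6, 329.9 and 378.3 CPM in WT and 277.9 and 301.5 CPM in KI. Its KI values lay inside the WT range, and other stretches of 236 and 89 bases gave log2 fold changes of -0.21 (SE 0.13) and 0.03 (SE 0.24). Grik1, Grik3 and Grik4 had no feature of their own.

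Among NMDA receptor subunits the obligatory subunit Grin1 came to 170.6, 189.4 and 245.9 CPM in WT and 203.0 and 212.2 CPM in KI. Its KI values fell within the WT range, with a log2 fold change of 0.04 and an interval of -0.29 to 0.37. Grin2b, a main GluN2 subunit of striatal neurons, measured 134.4, 165.3 and 137.6 CPM in WT and 149.5 and 146.2 CPM in KI (log2 fold change 0.02, SE 0.13), and its second feature, over 448 other bases, gave 0.09 (SE 0.18). Grin2a, the other main GluN2 subunit, was read at a low level of 10.3, 12.7 and 13.3 CPM in WT and 6.62 and 9.26 CPM in KI. Here both KI libraries were below all WT libraries (log2 fold change -0.60, SE 0.36, edgeR adjusted p = 0.884). The second feature over Grin2a, on 372 other bases, gave 0.22 (SE 0.61), the opposite sign.

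Of the other NMDA receptor subunits read, Grin2d and Grin3a were highest in both libraries numbered 1. Grin2d, a subunit found mainly in interneurons and in diencephalon and midbrain, was at 36.8, 16.7 and 13.7 CPM in WT and 34.4 and 16.9 CPM in KI. Grin3a, which lowers calcium flow through the receptor and was read over all its exons, came to 200, 113.2 and 146.4 CPM in WT and 214.6 and 145.1 CPM in KI. The genotypes overlapped in both genes. Log2 fold changes between genotypes were 0.19 (SE 0.40) and 0.23 (SE 0.21). The gene read under the delta receptor symbols was Grid2ip, a PDZ scaffold protein, at 4.73 to 15.2 CPM in WT and 3.70 to 9.86 CPM in KI. WT replicate 1 and KI replicate 1 were again its highest libraries, and its log2 fold change was -0.30 (SE 0.58). A separate stretch of Grid2ip, over 773 bases, gave -1.33 (SE 0.70, edgeR adjusted p = 0.836). Shorter stretches of 143 and 13 bases, which overlap these, gave 0.47 (SE 0.81) and -0.77 (SE 1.545). The receptor gene Grid1 had no feature. Features with no exon held 1.25 to 1.83 counts per kilobase and library. At that rate, bases outside exons would give over 10% of the counts of the tested genes Grid2ip, Glra3, Lrrtm4 and Syt17. For the features that stand for Dlg1, Gabre and Dlgap5, which did not pass the filter, it would give more counts than were found.

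Among metabotropic glutamate receptors, Grm4, a presynaptic receptor coupled to Gi that lowers cAMP, was at 5.76, 15.7 and 9.31 CPM in WT and 6.89 and 16.5 CPM in KI, with fully overlapping groups. A second stretch of Grm4, over 136 bases, held 225 to 323 counts per library and gave -0.40 on the log2 scale (SE 0.20, adjusted p = 0.831 in edgeR), against 0.19 (SE 0.47) for the first. Grm6, the receptor of retinal ON bipolar cells, had 0 counts in every library. Grm2, Grm3, Grm5 and Grm7 could not be read.

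**Figure D2:**
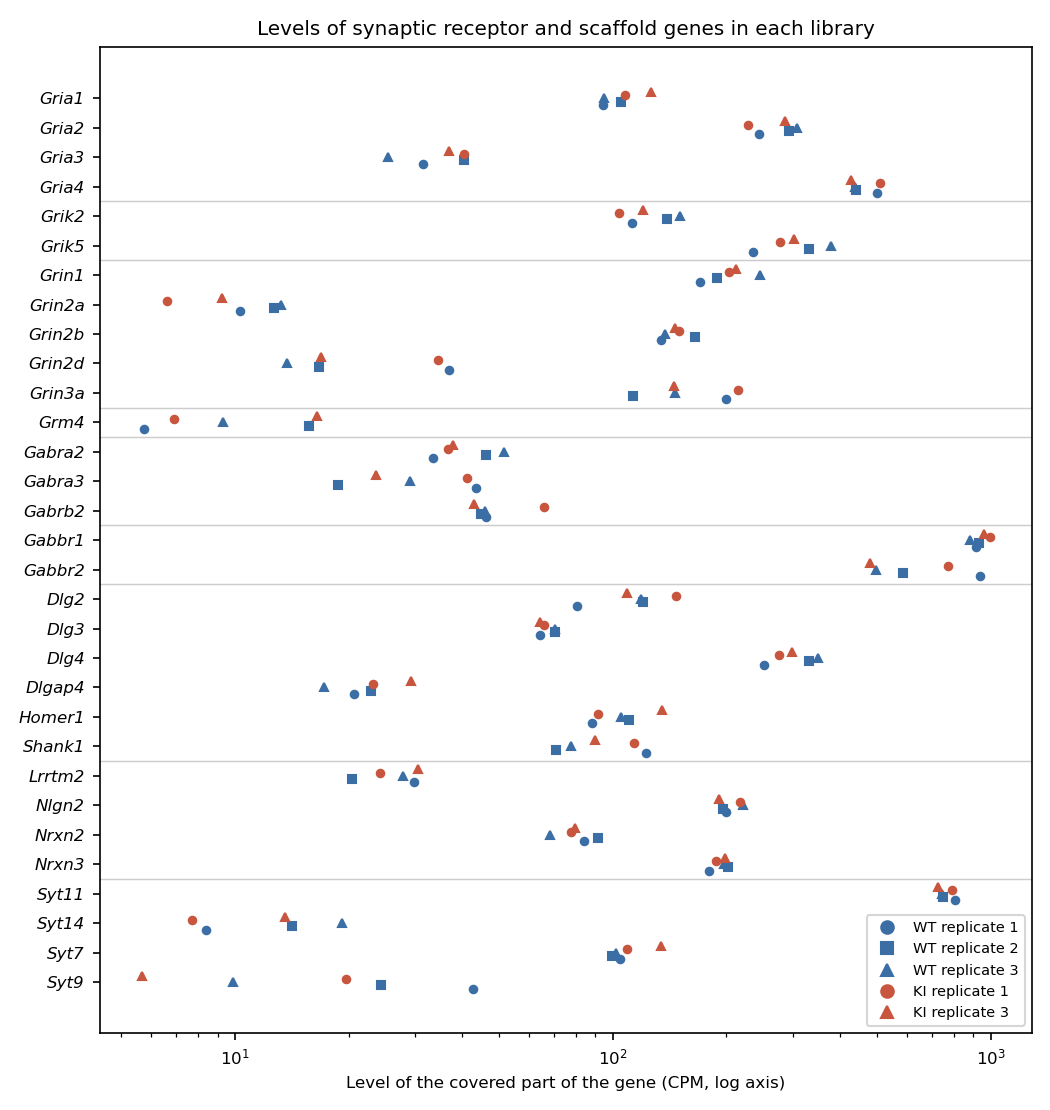
Level of the covered part of genes with a mean of at least 10 CPM (31 of 32 genes), in CPM on a log axis: each point is a library, with WT in blue, KI in red, and the replicate number as circle (1), square (2) or triangle (3). Red and blue points overlap for most genes, while in Grin2d, Grin3a and Gabbr2 the circles stand above the rest.

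GABA-A receptors were read through 9 of 19 genes, of which 5 passed the filter. Gabra2, an alpha subunit abundant in striatum, came to 33.5, 46.3 and 51.6 CPM in WT and 36.7 and 37.8 CPM in KI. Those counts come from pairs that touch a single stretch of 24 coding bases, printed above. Gabra3, another alpha subunit, measured 43.5, 18.8 and 29.1 CPM in WT and 41.2 and 23.7 CPM in KI, with both libraries numbered 1 on top. Gabrb2 was nearly level over WT, at 46.3, 44.9 and 45.9 CPM, while KI replicate 1 reached 65.9 CPM and KI replicate 3 lay below them at 43.1 CPM. Gabrq, the theta subunit, differed widely within KI: 6.28, 7.20 and 5.03 CPM in WT, 21.3 CPM in KI replicate 1 and 2.72 CPM in KI replicate 3. Its fitted log2 fold change of 0.95 (SE 0.61, adjusted p = 0.915 in edgeR) therefore rests on KI replicate 1, and without the libraries numbered 1 it was -1.17. Another stretch of Gabrq, over 211 bases, also had its highest count, 53, in KI replicate 1, against 7 to 22 elsewhere. The features of Gabre, Gabrp, Gabrr1 and Gabrr3 held at most 7 counts in a library. Gabra4, an alpha subunit, had no feature.

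GABA-B receptors, obligate pairs of Gabbr1 and Gabbr2 that lower cAMP through Gi, were read through both genes, Gabbr2 over all its exons and Gabbr1 over 573 bases. Gabbr1 was at 916.2, 933.4 and 884.2 CPM in WT and 994.5 and 959.1 CPM in KI. The KI libraries were both above the WT libraries, by 0.10 on the log2 scale (SE 0.09, adjusted p = 0.988 in edgeR), and the interval allows at most 1.23-fold. Gabbr2, with 6686 exon bases on chromosome 4, came to 939.2, 588.3 and 496.7 CPM in WT and 770.8 and 478.9 CPM in KI. WT replicate 1 and KI replicate 1 exceeded the other libraries, and the genotypes overlapped (log2 fold change -0.11, SE 0.23). Per kilobase of exon in WT, the genes covered in full were ordered Gabbr2 (100.9 CPM per kilobase), Gria4 (72.9), Grin3a (12.5), Gabrr2 (2.40) and Gabrr1 (0.0972). The glycine receptor subunit Glra3 held 0 to 12 counts per library, and the other glycine receptor genes, Glrb among them, had no feature.

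Scaffold genes were read for 10 of 15 symbols, and 8 passed the filter, 5 above and 3 below 0 in log2 fold change. Dlg4 encodes PSD-95, the central scaffold of excitatory synapses, and measured 252.0, 330.5 and 348.6 CPM in WT and 275.5 and 298.7 CPM in KI. Dlg3, which encodes SAP102, stood between 64.1 and 70.5 CPM in all libraries. Dlg2, which encodes PSD-93, was at 80.4, 120.2 and 119.0 CPM in WT and 146.9 and 109.3 CPM in KI, with a log2 fold change of 0.27 (SE 0.19). Without KI replicate 1 it was 0.04, without WT replicate 1 it was 0.11 and without KI replicate 3 it was 0.47. Other stretches of Dlg2 gave 0.16 (SE 0.15) and 0.03 (SE 0.16). For Dlg1, which encodes SAP97, the largest stretch of 182 noncoding bases held at most 7 counts. Shorter stretches of Dlg1 held 266 to 509 counts per library, and their log2 fold changes were -0.08 (SE 0.17), -0.46 (SE 0.19, edgeR adjusted p = 0.693) and -0.44 (SE 0.19, edgeR adjusted p = 0.699).

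Shank2, a master scaffold that links Homer and the Dlgap proteins, had the smallest p of all the genes. It came to 5.24, 2.93 and 4.27 CPM in WT and 8.78 and 8.27 CPM in KI, from 22 to 67 counts per library. Both KI libraries were above all WT libraries, with means of 8.52 ± 0.36 CPM (SD, n = 2) and 4.15 ± 1.16 CPM (SD, n = 3), a log2 fold change of 1.04 (SE 0.47) and an interval of 1.02-fold to 4.14-fold, but the adjusted p was 0.770 in edgeR's test. The feature lies at chr7:144401104-144418980, where it covers 535 noncoding exon bases of Shank2, and a separate feature over 90 other bases of Shank2 held 124 to 180 counts with a log2 fold change of -0.16 (SE 0.29). With all features of Shank2 summed, the log2 fold change was 0.13 (edgeR adjusted p = 0.990). Shank1 measured 122.7, 70.8 and 77.8 CPM in WT and 113.7 and 89.6 CPM in KI, highest in both libraries numbered 1, and its second stretch of 218 bases gave a log2 fold change of 0.34 (SE 0.19). Homer1, which ties Shank to other postsynaptic proteins, was at 88.2, 110.2 and 105.4 CPM in WT and 91.4 and 135.0 CPM in KI. The feature of Homer1 also covers Gm2076 and Gm47075. Homer2, of the same family, came to 14.9, 7.20 and 10.1 CPM in WT and 8.24 and 3.70 CPM in KI (-0.85 on the log2 scale with SE 0.47, adjusted p = 0.863 in edgeR), with overlapping groups. Leaving out KI replicate 3 gave -0.38, WT replicate 1 gave -0.53 and KI replicate 1 gave -1.53. Dlgap4 was the remaining tested scaffold gene, at 17.2 to 22.9 CPM in WT and 23.2 to 29.2 CPM in KI. That feature overlaps 4930405A21Rik too, and 2 other stretches of Dlgap4 gave log2 fold changes of 0.09 (SE 0.22) and 0.46 (SE 0.26). Dlgap5, a mitotic spindle gene that shares the symbol, held 0 to 8 counts. Shank3, Dlgap1, Dlgap2, Dlgap3 and Homer3 could not be read.

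Adhesion genes were read for 5 of 10 symbols, and in none were both KI libraries beyond the WT libraries. Nrxn3, a presynaptic neurexin, measured 179.5, 202.1 and 197.1 CPM in WT and 187.4 and 198.7 CPM in KI, with a log2 fold change of 0.0017 (SE 0.12) and an interval of 0.836-fold to 1.20-fold. Nlgn2, the neuroligin of inhibitory synapses, was at 199.9, 196.3 and 221.6 CPM in WT and 217.3 and 190.6 CPM in KI, with an interval of 0.822-fold to 1.19-fold. Nrxn2 came to 83.8, 91.4 and 68.3 CPM in WT and 77.8 and 79.6 CPM in KI, from a feature that it shares with AC167245.1. In all 3 genes the genotypes overlapped. A short stretch of 30 bases of Nrxn2 gave -1.07 on the log2 scale (SE 0.40, adjusted p = 0.602 in edgeR), whereas its 172-base stretch, with 1083 to 1340 counts per library, gave -0.01 (SE 0.13). Lrrtm2 stood at 20.4 to 29.9 CPM in WT and 24.2 to 30.5 CPM in KI, and Lrrtm4 at 1.05 to 2.10 CPM over all libraries. Nlgn1, Nlgn3, Lrrtm1 and Lrrtm3 could not be read.

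Synaptotagmins, most of them calcium sensors or membrane adaptors of exocytosis, were read for 6 of 17 genes. Syt11, which does not bind calcium, measured 806.8, 747.2 and 746.3 CPM in WT and 791.4 and 725.3 CPM in KI. Its interval of 0.853-fold to 1.15-fold was among the narrowest, although its feature also covers other noncoding genes. Syt7, a slow, high-affinity calcium sensor, was at 104.3, 99.8 and 101.9 CPM in WT and 109.0 and 134.3 CPM in KI. KI was above WT in both libraries without passing (log2 fold change 0.25, SE 0.14, edgeR adjusted p = 0.863), and a second stretch of 80 bases gave 0.41 (SE 0.22, edgeR adjusted p = 0.834). The Syt7 feature also covers Gm26859.

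Syt9, a fast calcium sensor of striatal and limbic neurons, spread widely: 42.7, 24.4 and 9.92 CPM in WT and 19.7 and 5.68 CPM in KI. Within each genotype the library numbered 1 was the highest and the one numbered 3 the lowest, and the genotypes overlapped. The difference was -1.02 on the log2 scale (SE 0.55, adjusted p = 0.845 in edgeR). Its size turned on single libraries: -0.44 without WT replicate 1, -0.38 without KI replicate 3 and -2.18 without KI replicate 1, none of which passed. Without both libraries numbered 1 it was -1.60 and passed (edgeR adjusted p = 0.0289), in a comparison of 2 WT libraries with 1 KI library that assumes the KI library to vary like the WT libraries and that called 2.46% of all features. Syt14 stood at 8.38 to 19.2 CPM in WT and 7.70 to 13.6 CPM in KI, Syt17 at 5.49 to 11 and 8.39 to 9.59 CPM, and Syt16 at 0.945 to 2.49 CPM over all libraries. Syn3, the synapsin that could be read, came to 2.09, 4.67 and 5.95 CPM in WT and 6.75 and 6.54 CPM in KI. Both KI libraries were above WT, but the log2 fold change of 0.65 (SE 0.55) did not pass (edgeR adjusted p = 0.977). Syn1, Syn2 and Syt1 had no feature of their own.

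By count, more of these genes divided by the libraries numbered 1 than by genotype. WT replicate 1 and KI replicate 1 were both above the other 3 libraries for 11 genes and both below them for 10, together 21 of 42, where 26.3% of all tested features did so (13.1% above and 13.3% below). Among genes of at least 10 CPM it was 8 above and 9 below of 32, against 28.5% of the features at that level (16.1% above and 12.4% below), while 6 of the 32 had both KI libraries beyond WT (24.2% of those features). This pair of libraries was singled out after the values were seen, and no test was made of it. Above were Gria4, Grin2d, Grin3a, Grid2ip, Gabra3, Gabrb2, Gabrr2, Gabbr2, Shank1, Syt11 and Syt17, and below were Gria2, Grik2, Grik5, Grm4, Gabra2, Dlg4, Homer1, Lrrtm4, Nrxn3 and Syt14. Some margins were small. Gabrb2 was at 46.3 CPM in WT replicate 1 and 45.9 CPM in WT replicate 3. Lrrtm4 held 8 counts in WT replicate 1, KI replicate 1 and WT replicate 3 alike.

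Thalamic markers moved with the same libraries. Slc17a6, the vesicular glutamate transporter of thalamic neurons, measured 47.7, 14.8 and 4.58 CPM in WT and 32.8 and 4.20 CPM in KI, and Prkcd measured 90.2, 13.1 and 6.25 CPM in WT and 47.4 and 9.38 CPM in KI. All 4 thalamic markers read were highest in WT replicate 1 and KI replicate 1, and their sum was 22.1 to 185.2 CPM in WT and 16.5 to 102.6 CPM in KI. None of the 4 was at 0 in all libraries. Slc17a7, the transporter of cortical neurons, followed another order, with 73.3, 285.9 and 209.6 CPM in WT and 95.8 and 22.0 CPM in KI. The part of either in the synaptic genes' levels was not tested. With the summed thalamic level as a covariate, a choice made after seeing the data, 0 of the 42 genes passed in edgeR and 4 had an unadjusted p under 0.05 (1.23% and 8.94% of all features). With the Slc17a7 level in its place these were 0 and 2 (0.0146% and 3.7%).

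**Figure D3:**
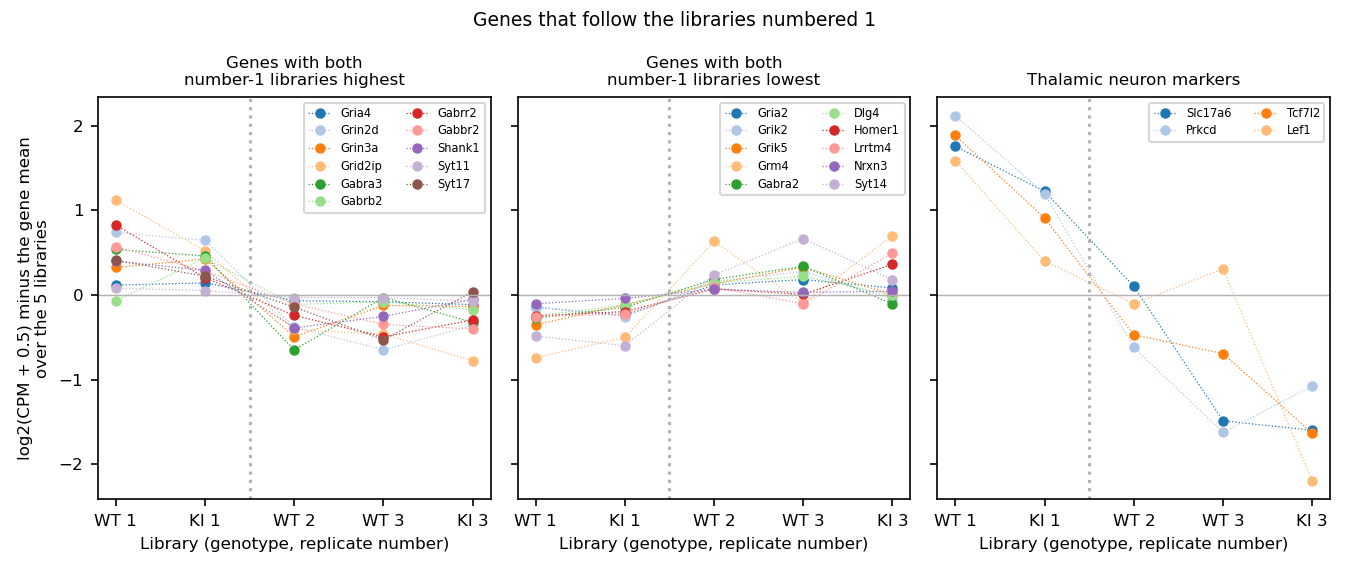
Level of each gene in each library as log2(CPM + 0.5) minus the gene's mean over the 5 libraries, for the 11 genes highest (left) and the 10 genes lowest (middle) in both libraries numbered 1 and for the 4 thalamic markers (right): points are libraries, ordered with the number-1 libraries first, and the dotted vertical line parts them from the others. Grid2ip and Grin2d show the widest gaps among the genes on the left, and the markers on the right span a wider range than any of them.

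Other genes of the synapse, from lists of auxiliary subunits, postsynaptic proteins, release machinery and adhesion proteins, had 0 members past the edgeR threshold in each list. Of 8 auxiliary subunits tested, 4 were above and 4 below 0, with a median log2 fold change of -0.01 and 0 past the edgeR threshold, and 3 had an unadjusted p under 0.05, all below 0 (6.39% of all features, 11.9% of those at 100 CPM or more). Neto2, an auxiliary subunit of kainate receptors, was at 506.3, 625.3 and 613.4 CPM in WT and 434.2 and 456.2 CPM in KI (-0.39 on the log2 scale with SE 0.12, adjusted p = 0.387 in edgeR). Both KI libraries were below all WT libraries, as they were for Frrs1l, an assembly factor of AMPA receptors (log2 fold change -0.32, SE 0.10, edgeR adjusted p = 0.384). Of 13 other postsynaptic proteins, 7 were above and 6 below 0 (median 0.01, 0 past the threshold, 1 with an unadjusted p under 0.05 where 6.39% of all features had one). Arc, an immediate early gene that acts on AMPA receptor uptake, had the smallest p of that list, at 311.6, 481.7 and 396.0 CPM in WT and 325.6 and 282.9 CPM in KI, with overlapping groups, followed by Magi2 at a log2 fold change of 0.31 (SE 0.19).

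Of 21 release machinery genes, 10 were above and 11 below 0 (median -0.03, 0 past the edgeR threshold, 2 with an unadjusted p under 0.05, against the same 6.39%). Rab3c, a small GTPase of synaptic vesicles, came to 191.8, 163.3 and 138.4 CPM in WT and 268.7 and 203.5 CPM in KI, above WT in both KI libraries (log2 fold change 0.52, SE 0.16, edgeR adjusted p = 0.384). Unc13c, a priming factor, measured 78.7, 49.5 and 67.6 CPM in WT and 44.8 and 44.4 CPM in KI (-0.55 on the log2 scale with SE 0.20, adjusted p = 0.598 in edgeR). Of 13 other adhesion genes, 7 were above and 6 below 0 (median 0.03, 0 past the threshold, 0 with an unadjusted p under 0.05), with the smallest p for Lrfn1 (0.36, SE 0.22) and Ptprf (-0.18, SE 0.13). The DESeq2 Wald test and limma voom called 0 genes in these 4 lists.

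**Figure D4:**
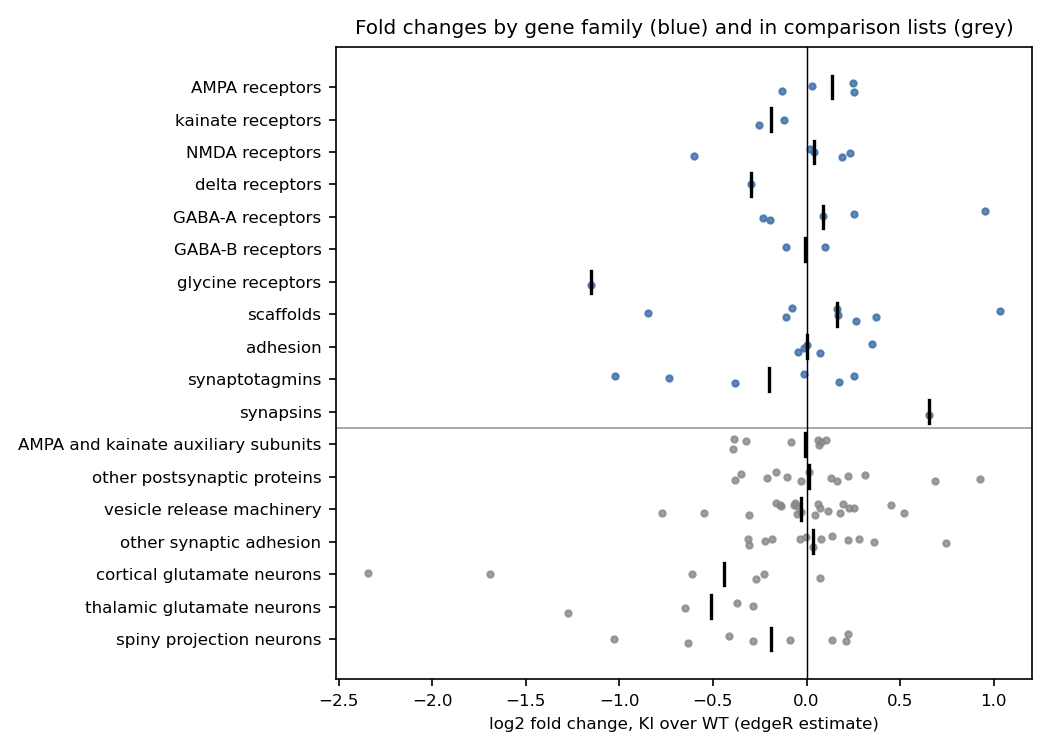
Log2 fold changes of KI over WT for each tested gene (points, edgeR estimates, scattered vertically for legibility) by family (blue, metabotropic glutamate receptors left out) and in the comparison and marker lists (grey), with the median as a black bar. Family medians lie on both sides of 0, and those resting on 1 gene, the glycine receptor, delta receptor and synapsin families, are among the farthest from it.

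The promoters were searched for the full cAMP response element TGACGTCA, a palindrome that reads the same on both strands. RefSeq promoter windows of GRCm38.p6, 300 bases around each start, were matched by symbol for 34 of the 49 genes, with 51 windows. The element was in 0 of these 51 windows, against 1.79% of all 32851 windows. Over all genes that the rule names, read or not, it was in 1 of 95 windows (1.05%), that of Syn1. At so low a share, 0 of 51 is near the background.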

How the data were processed

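The deposited files give raw counts, made by the authors with featureCounts 2.0.1 from the Ensembl release 103 annotation of GRCm39 according to the file headers. Their recorded options count read pairs, credit a pair to each feature it touches and ignore strand, while the kit is a stranded one, per the labels' protocols, so a gene and its antisense or overlapping neighbour are not separated. Aligner and alignment build: not given in the sources used here. Exons of GENCODE M21 (GRCm38) were intersected with the features by position (bedtools 2.31.1), without converting coordinates. A feature took the name of the sole gene, or sole protein-coding gene, there, which named 16373 features (57.63% of the counts). Of several features of a gene, the one with most exon bases stands for it. After filterByExpr and TMM scaling, KI was tested against WT in edgeR 4.0.16 (R 4.3.3, quasi-likelihood), adjusting by Benjamini-Hochberg over 13665 features, threshold 0.05; the common biological coefficient of variation was 29.8%. Standard errors and intervals come from the F statistic and are approximate. The test was checked on simulated counts that varied less than these data, with changes planted only in features of at least 10 CPM. That check says nothing on genes of lower level or on changes smaller than those planted. DESeq2 1.42.0, limma 3.58.1, other scaling, filters, naming, covariates, a replicate block and left-out libraries were alternatives. The genes, lists and naming rule were chosen with earlier results of these data known. In each family the rule names genes called by any of 4 fits, the 2 with the smallest p and the 2 with the highest level per covered kilobase; further genes are named only to account for every gene, after their values were seen. Some genes are not reported here.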

Additional observations from a re-analysis of the deposited data

How the results depend on the processing

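DESeq2 gave an adjusted p to 28 of the 49 genes, and Shank2 was not among them. Where one was given, the adjusted p of every synaptic gene stayed above 0.05 under the other tools, scaling, filter, covariates and naming. It also did with each WT library left out, and 0 passed at a false discovery rate of 0.10. The exception was Syt9 without both libraries numbered 1, where 1 gene passed. That setting and the thalamic covariate were chosen after seeing the data. Over all features 14 were called, against 123 with the DESeq2 Wald test, 51 with limma voom, 183 with no filter, 153 with the replicate block, 67 at a false discovery rate of 0.10, 2 with the Slc17a7 level and 168 with the thalamic level as a covariate, and 361 without both libraries numbered 1. Leaving out 1 library gave 2 to 162: 162 without WT replicate 1, 3 without WT replicate 2, 2 without WT replicate 3, 30 without KI replicate 1 and 6 without KI replicate 3. The cause was not tested.

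Synaptic genes with an unadjusted p under 0.05 numbered 1 (6.39% of all features). The count was 0 with DESeq2 (3.81%), 2 without scaling (6.47%), without a filter (4.77%) or with the Slc17a7 level (3.7%), 3 with the replicate block (8.12%) or a gene's features summed (6.61%), 4 with the file labels (6.39%) or the thalamic level (8.94%) and 6 without both libraries numbered 1 (10%). With 1 library left out it was 0 to 7: 7 without WT replicate 1 (9.5%), 0 without WT replicate 2 (5.37%), 4 without KI replicate 1 (5.5%) and 2 without KI replicate 3 (5%). The shares of all features moved too, so these counts are not results about the synaptic genes alone. The replicate block rests on 2 shared numbers. Deviations from the group means correlated at 0.121 between both libraries numbered 1 and at 0.0767 between those numbered 3. WT replicate 2 and KI replicate 3, of different number, correlated at 0.0588. With 2 KI libraries their deviations mirror each other (-1), so these values are not independent. The labels do not say that a number marks a pair. In the block Syt9 had the smallest adjusted p of these genes, 0.189. Of the comparison lists, Rab3c (0.0301) and Cplx1 (0.0181) passed with the block, but not without it and not in DESeq2 or limma voom. The block called 153 of 13665 features, against 14 in the main fit.

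Several log2 fold changes changed sign. With the Slc17a7 level they were 0.11 for Grik5, 0.013 for Gabra2, -0.017 for Gabra3, 0.45 for Glra3, 0.045 for Dlg4 and 0.083 for Nlgn2. With the thalamic level they were -0.035 for Grm4, 0.012 for Gabbr2, -0.014 for Nrxn3 and 0.00020 for Syt11. Without both libraries numbered 1 they were -0.053 for Grin2b, -0.038 for Grin1, -1.17 for Gabrq, -0.078 for Gabrb2, -0.015 for Gabra3, -0.13 for Dlg2 and -0.0083 for Nrxn3. With the replicate block they were -0.18 for Gabra3 and 0.055 for Nrxn2, with summed features -0.25 for Grm4, and with unscaled totals 0.0039 for Nrxn2, 0.034 for Nlgn2 and 0.033 for Syt11. By the file labels, which name other stretches, they were 0.22 for Grin2a, 0.27 for Glra3, -0.22 for Shank2, 0.021 for Dlg4, -0.25 for Dlg2 and -0.015 for Syn3. With 1 library left out, values ranged from -0.50 to 0.21 for Gabbr2, -0.36 to 0.44 for Gabra3, -0.088 to 0.53 for Gabrb2, -1.18 to 1.79 for Gabrq, -0.30 to 0.022 for Gria2, -1.16 to 0.49 for Grid2ip, -0.28 to 0.041 for Grik5, -0.062 to 0.21 for Grin1, -0.029 to 0.12 for Grin2b, -0.080 to 0.49 for Grin3a, -0.57 to 0.69 for Grm4, -0.20 to 0.74 for Lrrtm4, -0.11 to 0.079 for Nlgn2, -0.15 to 0.052 for Nrxn2, -0.042 to 0.041 for Nrxn3 and -0.082 to 0.047 for Syt11. Without a change of sign but by over 1.5 times, they ranged from 0.13 to 0.36 for Gria1, 0.11 to 0.44 for Gria3, -0.37 to -0.16 for Grik2, -0.87 to -0.39 for Grin2a, -0.39 to -0.093 for Gabra2, -0.24 to -0.015 for Dlg4, 0.037 to 0.47 for Dlg2, -1.53 to -0.38 for Homer2, 0.097 to 0.39 for Syt7, -2.18 to -0.38 for Syt9 and 0.33 to 0.98 for Syn3. The widest such range was that of Glra3, a gene of few counts, at -6.36 to -0.16 over the fits that tested it. Over the 31 named genes and all alternatives, 54 values changed sign and 454 kept their direction and their side of the threshold. The remaining 1 was Syt9 without both libraries numbered 1, at -1.60. The 454 include settings that repeat a gene's main estimate, such as the false discovery rate of 0.10, where no change of sign was possible. They also include DESeq2 values without an adjusted p, as for Shank2, which have no side of the threshold to keep. That count is therefore no measure of stability.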
